A study of Rattus norvegicus with 8 samples.

Results

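The RNA levels of 10 genes that carry or switch off signals from G protein-coupled receptors were compared in the stellate ganglion, the sympathetic ganglion that supplies the heart. The genes were 6 G protein alpha subunits (Gnao1, Gnai1, Gnai2, Gnai3, Gnaq and Gnas), the receptor kinase Grk2 (older name Adrbk1), the beta-arrestins Arrb1 and Arrb2, and Rgs4. They were chosen by name as 1 RefSeq transcript record each (NM_017327, NM_013145, NM_031035, NM_013106, NM_031036, NM_019132, NM_012776, NM_012910, NM_012911 and NM_017214, in the order above), 10 of the 18314 records in the files. All 10 were found, and the symbol of each matched that of its record in a RefSeq gene table. The right stellate ganglia came from 4 Wistar rats, an outbred normotensive stock, and 4 spontaneously hypertensive rats (SHR), an inbred line with genetic hypertension, all males aged 16 weeks with no treatment named. Each library held the RNA of a single ganglion, so neurons, satellite glia, Schwann cells, vessels and connective tissue were measured together, and Wistar rats are not the inbred partner strain of SHR.

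G protein-coupled receptors pass their signal to a heterotrimer of an alpha, a beta and a gamma subunit. In sympathetic neurons the Gi and Go alpha subunits serve the receptors that restrain noradrenaline release, through inhibition of adenylyl cyclase and, by way of the beta-gamma dimer, of N-type calcium channels. Gs (encoded by Gnas) stimulates adenylyl cyclase, and Gq (Gnaq) activates phospholipase C and serves the muscarinic control of the M-current. Receptor kinases phosphorylate active receptors, beta-arrestins then bind and uncouple them, and RGS proteins speed the hydrolysis of GTP that ends signalling by Gi, Go and Gq.

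Estimated counts summed to between 25820299 and 35509074 per rat, and every pair of libraries of a strain differed by more than counting noise. The tissue label fitted its markers, since the 10 sympathetic neuron markers with a record summed to between 40069 and 46736 TPM (transcript abundance corrected for length and depth) in all 8 rats, with overlapping ranges in the strains. The summed TPM of each of the other 8 marker lists overlapped between the strains too. These were for satellite glia, myelin, endothelium, smooth muscle, macrophages, fibroblasts, adipocytes and striated muscle. A sum is led by its most abundant genes, and single markers could differ. In counts scaled between rats, Dbh and Myh2 were lower, and Flt1 and Cnn1 higher, in every SHR than in every Wistar rat. That was 1 of 10 tested sympathetic neuron records, 2 of 7 endothelial, 1 of 4 smooth muscle and 1 of 3 striated muscle records. The other marker lists had none, and 10.6% of all records tested did not overlap. Cnn1 was thinly counted, with means of 8.75 in Wistar and 15.9 in SHR. All 11 myelin records had a log2 fold change (SHR over Wistar) below 0, from -1.14 to -0.04, with none past the threshold of the main test. SHR replicates 3 and 4 had the lowest macrophage sums (192 and 319 TPM over 7 genes, against 572 to 1023 in the other 6 rats). They also had the lowest smooth muscle sums (16.9 and 25.8 TPM, against 55.2 to 126 TPM). This sum was mostly Tagln, with a mean over the 8 rats of 81.4 TPM against 2.60 TPM for Acta2, the next highest. Scaled counts of Myh11 were 336 and 274 in these rats, above 175 in SHR replicate 2. Acta2 was lowest in SHR replicate 3 (28.2), but SHR replicate 4 (68.6) lay above Wistar replicate 4 (63.6). Cnn1 was highest in SHR replicate 4 (21.6). Adipocyte sums were highest in Wistar replicate 1 (65.2 TPM) and SHR replicate 1 (149 TPM), against 6.48 to 24.9 TPM in the other rats. Leaving out replicate 1 of both strains, a setting chosen after seeing the data, raised the number of records past the threshold of the main test from 389 to 1068. Values without these 2 rats are given below for the 10 genes where they change a call or move a value by over 1.5 times. For relatives of these genes they are given where a call was gained, and a lost call is named.

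The 10 genes spanned a 645-fold range of TPM, a scale that corrects for transcript length and so allows genes to be compared. Gnas was the most abundant, with 1311 ± 123 TPM in Wistar and 1517 ± 289 TPM in SHR (n = 4 each, SD), and ranked 121 among all 18314 records. Rgs4 followed with 607 ± 44.3 TPM in Wistar and 546 ± 31.4 TPM in SHR (n = 4 each, SD), rank 309. Both stood far above the inhibitory alpha subunits, of which Gnao1 had the highest level at 83.9 ± 3.19 TPM in Wistar and 70.9 ± 11.0 TPM in SHR (n = 4 each, SD). Gnai2, Gnai3 and Gnaq came next, with means over the 8 rats of 52.2, 30.2 and 19.6 TPM. Gnai1, Grk2, Arrb2 and Arrb1 were the lowest, with means of 7.94, 6.13, 5.55 and 2.19 TPM, and the highest Arrb1 value in any rat was 3.28 TPM.

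**Figure D1:**
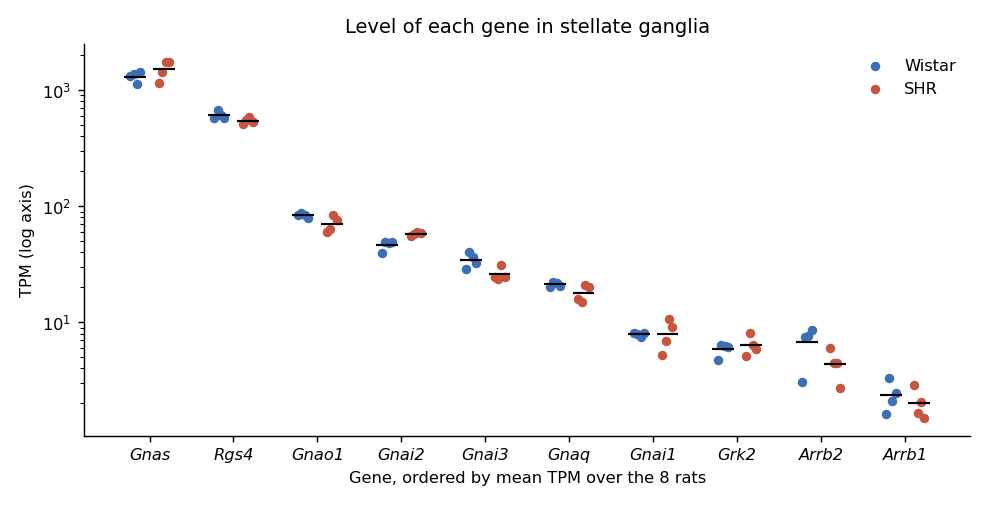
TPM (log axis) of the 10 genes in each rat, ordered by their mean over the 8 rats, with Wistar in blue, SHR in red and strain means as black bars. Gnas and Rgs4 lie above all other genes in every rat, and Grk2 and Arrb2 change places from rat to rat, with Grk2 the higher of them in 4 of the 8 rats.

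The order held in all 8 rats for every pair of neighbours down to Gnaq and Gnai1, and also for Arrb2 and Arrb1. Gnai1 exceeded Grk2 in 7 of the 8 rats. Grk2 and Arrb2 could not be ranked, since Grk2 was the higher in 4 rats only, 1 of them Wistar and 3 SHR. The level of Gnao1 over that of Gnai2 was 1.82 ± 0.214 in Wistar and 1.22 ± 0.153 in SHR (n = 4 each, SD), a ratio that was not tested on its own. Gnao1 was above Gnai2 in each of the 8 rats.

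Between the strains, no gene of the 10 passed an adjusted p of 0.05 in the quasi-likelihood test of edgeR, adjusted after Benjamini and Hochberg over all 13659 records tested, of which 2.85% passed. All 10 genes were among the records tested. At an unadjusted p under 0.05 there were 3 genes, Gnao1, Gnai2 and Gnai3, whereas 16.8% of all records did so. The same 3 genes were those whose normalised counts did not overlap between the strains, 30% of the 10 genes against 10.6% of all records tested. A normalised count here is the estimated count scaled by edgeR's TMM factors to the mean library size. The log2 fold change (SHR over Wistar) was above 0 in 4 genes and below 0 in 6, with a median of -0.17 against 0.01 for all records tested. Regardless of sign, the median was 0.22 for the 10 genes and 0.21 for all records tested.

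The choice of tool decided 2 of these genes. DESeq2 with the transcript length offset called Gnai2 and Gnai3 (adjusted p = 0.0381 and 0.0198), where 5.86% of all records passed, and DESeq2 without the offset also called these genes (0.0459 and 0.0183), with 5.72% of all records. The study's own DESeq2 analysis, done at gene level, named Gnai3 but not Gnai2 among the differentially expressed genes of its over-represented groups. Those groups do not hold all of its calls. limma voom called none of the 10. In edgeR with upper-quartile scaling Gnai2 alone passed (adjusted p = 0.0476), where 2.73% of all records passed. Without replicate 1 of both strains edgeR called Gnai3 and Arrb2, and 7.79% of all records.

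**Figure D2:**
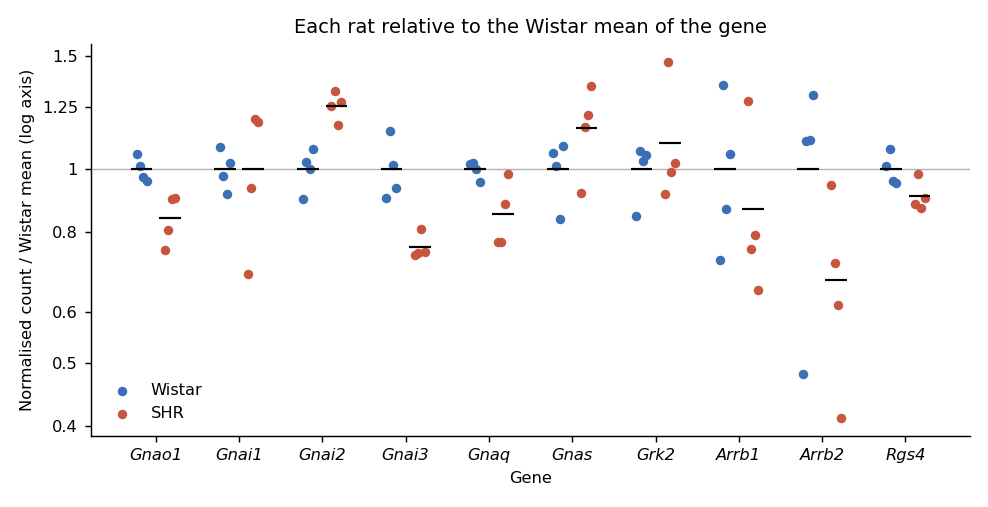
Normalised count of each gene in each rat divided by the Wistar mean of that gene (log axis), with Wistar in blue, SHR in red and strain means as black bars. The strains do not overlap for Gnao1, Gnai2 and Gnai3, while the points of Arrb1, Arrb2 and Grk2 are spread widely within each strain.

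Gnai2 encodes the Gi alpha subunit that is found in most cell types. Its normalised counts were 2417, 2753, 2686 and 2883 in Wistar replicates 1 to 4. In SHR replicates 1 to 4 they were 3367.5, 3559, 3146 and 3413. Every SHR lay above every Wistar rat, with SHR replicate 3 and Wistar replicate 4 the nearest to each other. The log2 fold change was 0.33 (SE 0.09, 95% interval from 0.13 to 0.52, edgeR adjusted p = 0.0869), a 1.26-fold higher mean in SHR. It is the only gene of the 10 whose TPM also failed to overlap, with 39.7 to 49.5 TPM in Wistar and 55.6 to 59.9 TPM in SHR. SHR replicates 3 and 4, where macrophage sums and the Tagln-led smooth muscle sums were lowest, had the highest Gnai2 TPM of all 8 rats. In normalised counts SHR replicate 2 was highest and replicate 3 the lowest of the SHR. In bulk tissue a difference in the share of a cell type and a difference in RNA per cell cannot be told apart, here or for any gene below.

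Gnai3, the Gi alpha subunit that is also found on internal membranes, lay the other way. Normalised counts were 2077, 2640, 2337 and 2156 in Wistar replicates 1 to 4, and 1697, 1710, 1862 and 1713 in SHR replicates 1 to 4. The SHR values were close together and all below the Wistar values. This gave a log2 fold change of -0.40 (SE 0.10, 95% interval from -0.62 to -0.18, edgeR adjusted p = 0.0677). In TPM the strains met, because SHR replicate 3 had 31.1 TPM and Wistar replicate 1 had 28.8 TPM. When each rat was left out in turn, the edgeR adjusted p of Gnai3 ran from 0.0563 to 0.193 and that of Gnai2 from 0.0950 to 0.203, with the same direction in all 8 fits.

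Gnao1 encodes the Go alpha subunit, which is abundant in neurons. Its normalised counts were 4038, 3867, 3720 and 3664 in Wistar replicates 1 to 4 and 2866, 3080, 3443 and 3454 in SHR replicates 1 to 4. The SHR values were all lower, with replicates 1 and 2 well below replicates 3 and 4, and these latter 2 were the nearest to the Wistar rats. For Gnao1 the log2 fold change was -0.25 (SE 0.09, 95% interval from -0.45 to -0.05, edgeR adjusted p = 0.199). In TPM the strains overlapped. The single record does not separate the splice forms of Go alpha.

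Gnai1, the Gi alpha subunit of lowest level here, had normalised counts of 343, 309, 289 and 324 in Wistar replicates 1 to 4. The SHR rats had 218, 296, 379 and 374. Here SHR replicate 1 was below the Wistar range, replicate 2 within it and replicates 3 and 4 above it, so that the strain means were nearly equal (316 ± 22.8 and 317 ± 76.2, SD, n = 4 each). The 95% interval of the log2 fold change ran from -0.41 to 0.42, which leaves room for a difference of that size in either direction.

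As a share of the summed Gi TPM, Gnai2 and Gnai3 did not overlap between the strains and Gnai1 did, while the sum itself overlapped (88.9 ± 8.77 TPM in Wistar and 91.8 ± 7.13 TPM in SHR, SD, n = 4 each). Gnai2 made up 51.9%, 50.3%, 52.3% and 55.0% of the summed Gi TPM in Wistar replicates 1 to 4. In SHR replicates 1 to 4 it made up 65.2%, 65.4%, 59.0% and 63.3%. All SHR lay above all Wistar rats, with SHR replicate 3 the nearest to Wistar replicate 4. Gnai3 held 36.02% to 41.5% in Wistar and 26.8% to 30.6% in SHR, again without overlap. Gnai1 held between 6.15% and 10.5% over all 8 rats, and the strains overlapped. The level of Gnai2 was 1.36 ± 0.131 times that of Gnai3 in Wistar and 2.25 ± 0.228 times in SHR (n = 4 each, SD).

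**Figure D3:**
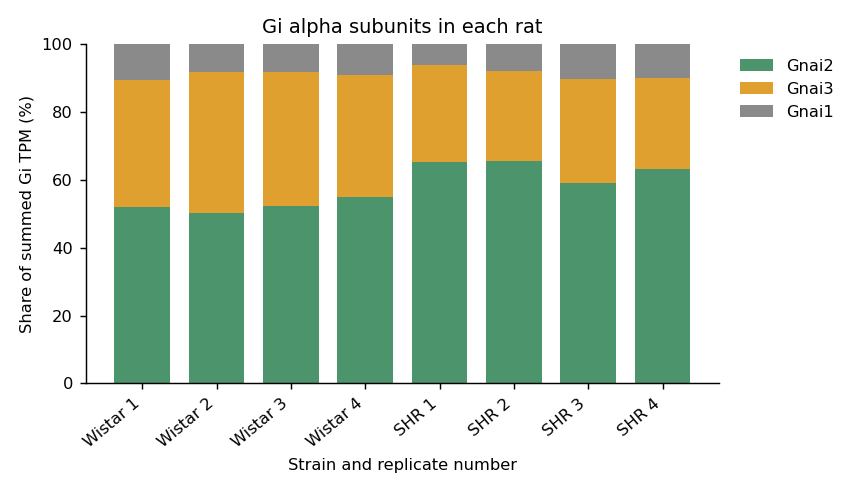
Share (%) of Gnai2, Gnai3 and Gnai1 in their summed TPM, with 1 stacked bar for each rat. Gnai2 (green) takes 50.3% to 55.0% in the 4 Wistar rats and 59.0% to 65.4% in the 4 SHR, and Gnai3 (orange) takes correspondingly less in SHR.

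A ratio between genes of the same rat does not depend on scaling between rats, and 8 such ratios of TPM were compared by a two-sided exact permutation test. With 4 rats against 4 the smallest p is 0.0286. The ratio of Gnai2 to the sum of Gnai1 and Gnai3 was 1.57-fold higher in SHR (exact permutation test, p = 0.0286, adjusted p = 0.0571 over the 8 ratios). The ratio of Gnai3 to the sum of Gnai1 and Gnai2 was 1.61-fold higher in Wistar (exact permutation test, p = 0.0286, adjusted p = 0.0571). These ratios share their genes and are not independent of each other. The ratio of Gnao1 to the 3 Gi genes was 0.951 ± 0.0994 in Wistar and 0.769 ± 0.0629 in SHR (n = 4 each, SD; exact permutation test, p = 0.0286, adjusted p = 0.0571). Without replicate 1 of both strains its log2 difference moved from -0.30 to -0.19. In all, 4 of the 8 ratios separated the strains completely and none passed after adjustment, which 4 ratios at the smallest possible p could not do among 8.

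Gnas was the only gene of the 10 with further records, 4 of them, but the record NM_019132 held between 94.8% and 97.4% of the TPM of the gene in every rat. Its normalised counts were 56994, 54417, 45049 and 58479 in Wistar replicates 1 to 4 and 49298, 62454, 65297 and 72353 in SHR replicates 1 to 4. Of the SHR, 3 lay above all Wistar rats and replicate 1 lay within their range. The log2 fold change was 0.21 (SE 0.13, 95% interval from -0.07 to 0.50, edgeR adjusted p = 0.432), and 0.22 when the records of each gene were summed. Without replicate 1 of both strains it was 0.33 (edgeR adjusted p = 0.108). Estimated counts of this record were whole in only 1 rat (within 0.001), since reads that fit several records are divided among them. Relative to the inhibitory subunits, the ratio of Gnas to Gnao1 and the 3 Gi genes was 7.61 ± 0.866 in Wistar and 9.27 ± 1.013 in SHR (n = 4 each, SD; exact permutation test, p = 0.0857, adjusted p = 0.137).

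Gnaq had normalised counts of 487, 490, 479 and 458 in Wistar replicates 1 to 4 and of 369, 368, 423 and 471 in SHR replicates 1 to 4. Wistar rats were close together, whereas SHR replicates 1 and 2 were low and replicate 4 fell inside the Wistar range. Its log2 fold change was -0.23 (SE 0.12, edgeR adjusted p = 0.380). The ratio of Gnaq to Gnas was 1.36-fold higher in Wistar, without overlap (exact permutation test, p = 0.0286, adjusted p = 0.0571). The Gnaq record is 1080 bases long, the shortest of the 10, and its counts were whole in 2 of the 8 rats.

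Among the genes of desensitization, Grk2, the kinase that phosphorylates active beta-adrenergic and other receptors, had normalised counts of 356, 450, 434 and 444 in Wistar replicates 1 to 4. The SHR had 386, 619, 418 and 430. Only SHR replicate 2 stood above the Wistar range, and the log2 fold change of 0.14 (SE 0.17, edgeR adjusted p = 0.723) became -0.03 without that rat. Over the receptor kinases with a record, Grk2 held 22.5% ± 1.05 of the summed TPM in Wistar and 23.7% ± 5.46 in SHR (n = 4 each, SD). Its closest relative Grk3 held more, 34.7% ± 5.71 and 31.9% ± 2.85 (n = 4 each, SD).

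The beta-arrestins were low in level, with wide spreads within each strain. Arrb2 had normalised counts of 151, 346, 348 and 408 in Wistar replicates 1 to 4 and of 297, 224, 193 and 129 in SHR replicates 1 to 4. Wistar replicate 1 thus lay between the lowest SHR values, and the other 3 Wistar rats lay above all SHR. Arrb2 had a log2 fold change of -0.57 (SE 0.33, 95% interval from -1.30 to 0.15, edgeR adjusted p = 0.405). Without replicate 1 of both strains it was -1.02 (edgeR adjusted p = 0.0269), and without Wistar replicate 1 alone -0.81 (edgeR adjusted p = 0.169). Macrophage markers, the markers of an immune cell that also expresses Arrb2, summed to 728 TPM in Wistar replicate 1 and 572 TPM in Wistar replicate 4, which had the lowest and the highest Arrb2 of the Wistar rats. SHR replicates 3 and 4 had the lowest macrophage sums and Tagln-led smooth muscle sums, and the lowest normalised Arrb2 counts of the SHR. SHR replicate 3 still lay above Wistar replicate 1, and in TPM SHR replicate 2 (4.447 TPM) was marginally below SHR replicate 3 (4.482 TPM). The part of any cell type in the Arrb2 values was not tested.

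Arrb1 was counted 47 to 103 times per rat before scaling, the thinnest data of the 10 genes. Its normalised counts were 58.6 to 110 in Wistar and 52.6 to 103 in SHR, which overlapped almost fully (log2 fold change -0.20, 95% interval from -0.85 to 0.45, edgeR adjusted p = 0.764). The value moved to -0.45 without SHR replicate 1, -0.02 without Wistar replicate 2 and -0.58 without replicate 1 of both strains, none of which passed. It was -0.33 without Wistar replicate 1, -0.08 without SHR replicate 4 and between -0.26 and -0.14 without any other single rat. Arrb2 exceeded Arrb1 in all 8 rats, by 2.81 ± 0.854 times in Wistar and 2.20 ± 0.374 times in SHR (n = 4 each, SD; exact permutation test, p = 0.257, adjusted p = 0.294). The ratio of Grk2 to both arrestins was 0.702 ± 0.211 in Wistar and 1.07 ± 0.379 in SHR (n = 4 each, SD; exact permutation test, p = 0.200, adjusted p = 0.267). On the log2 scale this ratio differed by 0.58, and by 1.04 without replicate 1 of both strains (3 rats against 3, not tested).

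Rgs4, which accelerates GTP hydrolysis on Gi, Go and Gq alpha subunits, had normalised counts of 40000, 42608, 37983 and 37641 in Wistar replicates 1 to 4. The SHR had 34946, 38967, 34405 and 35729. Of the SHR, 3 lay below all Wistar rats and replicate 2 lay among them. The log2 fold change was -0.14 (SE 0.08, 95% interval from -0.32 to 0.04, edgeR adjusted p = 0.429), the narrowest interval of the 10 genes. Its counts were high and alike between rats.

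The rest of the heterotrimer and the relatives of these genes were read from 7 lists set up by family name, with 64 genes and 63 records, of which 55 were tested. In edgeR 1 of the 55 rose in SHR, where 1.16% of all records did, and 3 fell, where 1.69% of all records did. The strains did not overlap in 11 of the 55 (20%), against 10.6% of all records tested. The median log2 fold change was 0.02. The calls were Gnb3, Gng7, Rgs8 and Rgs14. Of these, the study named Gnb3, Gng7 and Rgs14 among the differentially expressed genes of its over-represented groups. Whether it also called Rgs8 cannot be read from those groups, which do not hold all of its calls.

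Of the beta subunits, 1 of 5 fell. Gnb3, known above all from cone photoreceptors, had normalised counts of 1710, 1857, 1889 and 1585 in Wistar replicates 1 to 4 and of 1037, 1229, 1123 and 1054 in SHR replicates 1 to 4. The groups were far apart, with a log2 fold change of -0.66 (SE 0.10, edgeR adjusted p = 0.00618). The more abundant beta subunits did not pass the test. Gnb4 and Gnb5 had means over the 8 rats of 134 and 132 TPM against 34.5 TPM for Gnb3, and Gnb3 took 11.2% ± 0.737 of the summed beta subunit TPM in Wistar and 8.10% ± 0.217 in SHR (n = 4 each, SD). Gnb1 was higher in every SHR than in every Wistar rat, with a log2 fold change of 0.34 (SE 0.10, edgeR adjusted p = 0.128). In normalised counts Gnb5 was lower in every SHR than in every Wistar rat (log2 fold change -0.22, edgeR adjusted p = 0.275). SHR replicate 2 (3468.2) was only just below Wistar replicate 2 (3471.5). In TPM the strains overlapped for Gnb5, with 133 to 149 TPM in Wistar and 106 to 140 TPM in SHR. Gnb4 had a log2 fold change of -0.24 (edgeR adjusted p = 0.242), and its strains overlapped.

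Of the 10 gamma subunit records tested, 1 fell. Gng7, a gamma subunit best known from striatal neurons, had normalised counts of 744, 786, 840 and 708 in Wistar replicates 1 to 4 and of 373, 350, 239 and 411 in SHR replicates 1 to 4. Each SHR was well below each Wistar rat (log2 fold change -1.16, SE 0.17, edgeR adjusted p = 0.00460). It contributed little to the gamma subunits as a whole, with 9.51 ± 1.009 TPM in Wistar and 4.16 ± 0.730 TPM in SHR (n = 4 each, SD), against means over the 8 rats of 762.5 TPM for Gng3 and 352 TPM for the main Gng2 record. Summed over the list, gamma subunits lay at 1566 to 1824 TPM in Wistar and at 1384 to 1542 TPM in SHR, without overlap (exact permutation test, p = 0.0286, adjusted p = 0.200 over the 7 lists).

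Of the 18 tested records of other RGS genes, 1 fell and 1 rose. Rgs8, a small RGS protein of the same subfamily as Rgs4, had normalised counts of 1863, 1439, 1678 and 1381 in Wistar replicates 1 to 4 and of 907, 947, 1103 and 880 in SHR replicates 1 to 4. All SHR were below all Wistar rats (log2 fold change -0.73, SE 0.13, edgeR adjusted p = 0.0124). Its level was far under that of Rgs4, at 16.4 ± 1.95 TPM in Wistar and 9.87 ± 1.81 TPM in SHR (n = 4 each, SD). Rgs14, an RGS protein with a further Gi-binding motif, rose from 51.4 ± 6.27 to 99.1 ± 13.7 normalised counts (n = 4 each, SD; log2 fold change 0.95, SE 0.21, edgeR adjusted p = 0.0472). This call was lost in each of the 8 fits that left out a rat, with adjusted p from 0.0644 to 0.122, whereas Gnb3, Gng7 and Rgs8 passed in all 8. Without replicate 1 of both strains Rgs14 did not pass either. Rgs17 (log2 fold change 0.62, edgeR adjusted p = 0.00787) and Rgs3 (-0.70, edgeR adjusted p = 0.0443) passed there, as did Rgs6 and Rgs11, given under other observations.

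**Figure D4:**
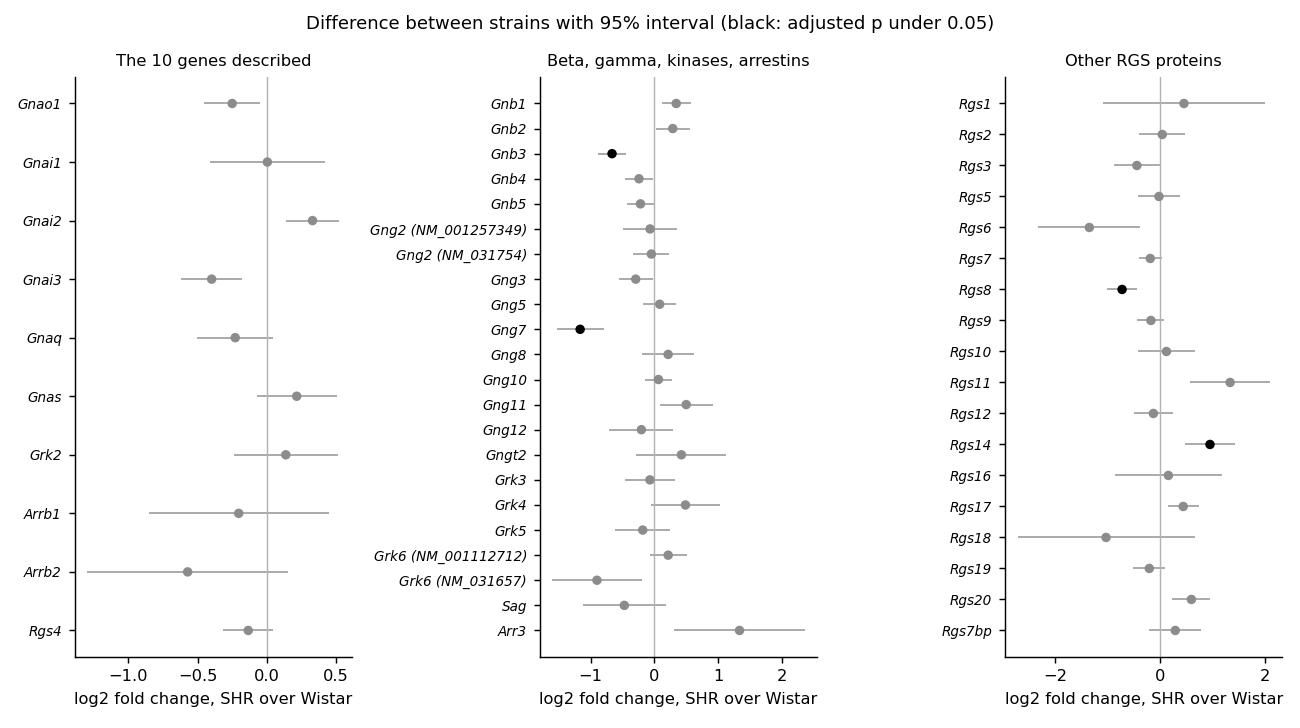
Log2 fold change (SHR over Wistar, x axis, with a range of its own in each panel) and 95% interval for the 10 genes, for the tested beta and gamma subunits, other receptor kinases and other arrestins, and for other RGS genes, with records past the adjusted p threshold in black. Gnb3, Gng7 and Rgs8 lie to the left of 0 and Rgs14 to the right, while none of the 10 genes is black.

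None of the 9 tested records of other alpha subunits, 5 of other receptor kinases, 2 of other arrestins and 6 of exchange and dissociation regulators passed the test in edgeR. The records with the smallest p in these lists were Gnaz (log2 fold change -0.80, edgeR adjusted p = 0.375), Grk6 NM_031657 (-0.90, edgeR adjusted p = 0.186), Arr3 (1.34, edgeR adjusted p = 0.181) and Gpsm1 NM_001145469 (0.52, edgeR adjusted p = 0.413). Without replicate 1 of both strains Gnaz passed (log2 fold change -1.49, edgeR adjusted p = 0.0299). Arr3, a visual arrestin, had a mean of only 6.81 normalised counts in Wistar and 17.3 in SHR. The second tested Grk6 record, NM_001112712, had a log2 fold change of 0.22 (edgeR adjusted p = 0.435), opposite to the first. Of the cell type markers, only Flt1, an endothelial receptor, had a record that passed (NM_019306, log2 fold change 1.19, edgeR adjusted p = 0.0298).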

How the data were processed

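Paired reads were quantified by the authors with Salmon 0.8.2, with corrections for GC and positional bias, against the UCSC RefSeq mRNA set of rn6. For each record the deposited files give a TPM, the lengths and an estimated count (expected count), which can be fractional and is not normalised between rats. The labels name a stranded mRNA kit, whereas the study's methods name SMARTer amplification.

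Counts were rounded and every record was tested with edgeR 4.0.16 in R 4.3.3 (TMM, filterByExpr, glmQLFit, glmQLFTest, Benjamini-Hochberg adjusted p under 0.05). DESeq2 1.42.0 and limma 3.58.1 were alternatives. Standard errors (SE) of log2 fold changes were derived from the F statistic. TPM ratios were compared by exact permutation tests (scipy 1.17.1). A RefSeq table of GRCr8 named 17360 of the 18314 records, and no coordinates are given since its build is not that of the files. Gene lists were set by family name. Text names the 10 genes, called list records (up to 20, and 3 per marker list) and, for a list without calls, the record of smallest p. Further records are named to compare levels, or for a lack of overlap or a call in an alternative fit, some after their values were seen. Members and lists were chosen with earlier results of these data known. In simulated counts with changed records among 13659, edgeR recovered 49.0% of 2-fold and 80.7% of 4-fold changes, and 7.36% of its calls were false.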

Additional observations from a re-analysis of the deposited data

Results flagged for a closer look

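Of 44 groups of 4 rats (each gene or ratio within a strain), 3 held a rat far from the others, where chance gives 2.2. Gnai3 had 1862 normalised counts in SHR replicate 3, against 1697 to 1713 in the other SHR. Grk2 had 356 in Wistar replicate 1, against 434 to 450 in the other Wistar rats. The TPM ratio of Gnao1 to the 3 Gi genes was 1.10 in Wistar replicate 1, against 0.886 to 0.916 in the others.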

How the results depend on the processing

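Over 20 alternatives Gnao1, Gnai2, Gnai3, Gnaq, Gnas, Arrb1, Arrb2 and Rgs4 kept their direction, and over 12 alternatives 7 of the 8 ratios did, all but that of Gnai1 to the other Gi genes (-0.21 to 0.15 on the log2 scale). The main test had 389 records past the threshold (158 higher and 231 lower in SHR), with 0 of the 10 genes and 4 of the pathway lists. DESeq2 with length offset gave 799 (367 and 432), with 2 and 7, and without it 780 (354 and 426), with 2 and 6. Without replicate 1 of both strains, a setting chosen after seeing the data, there were 1068 (303 and 765), with 2 and 8. Upper-quartile scaling gave 190 higher and 183 lower, with 1 of the 10 genes. Leaving out one rat gave 237 to 454 records, 92 to 198 higher and 136 to 256 lower, with 0 of the 10 genes and 3 to 5 of the lists. The lowest counts came without Wistar replicates 2, 3 and 4 (237, 243 and 238) and without SHR replicate 4 (248).

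The log2 fold change of Gnai2 passed at 0.39 with upper-quartile scaling, 0.33 in DESeq2 without and 0.33 with the length offset. That of Gnai3 passed at -0.40 in DESeq2 without and -0.40 with the offset, and at -0.44 without replicate 1 of both strains, where Arrb2 passed at -1.02. With one rat left out the ranges were 0.28 to 0.38 for Gnai2, -0.45 to -0.33 for Gnai3, -0.81 to -0.39 for Arrb2, -0.45 to -0.02 for Arrb1, -0.093 to 0.15 for Gnai1 and -0.033 to 0.21 for Grk2. The Gnai1 value, near 0, turned negative without a count filter (-0.0057), in limma voom (-0.020), with the block (-0.027) and without Wistar replicate 2 or 3 or SHR replicate 3 or 4, and was 0.18 without replicate 1 of both strains. Grk2 turned negative without SHR replicate 2 alone. The cause of these shifts was not tested. Arrb1 had the fewest counts of the 10 genes, 47 to 103 per rat.

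No pairing was seen between rats of the same replicate number, which correlated at -0.29 to -0.04, and 0 correlated best with its own number. So few rats cannot decide whether the numbers mark a pairing. With the replicate block, which uses up residual degrees of freedom, 132 records passed (44 and 88), 0 of the 10 genes and 0 of the pathway lists, with edgeR adjusted p of 0.0517 for Gnb3, 0.0524 for Gng7, 0.0628 for Rgs8 and 0.278 for Rgs14. Rgs14 lost its call in 13 of 20 alternatives.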

Other observations

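Genes of the R7 group of RGS proteins, which pair with Gnb5 in neurons, were singled out after their values were seen. Rgs11 was higher in every SHR (normalised counts of 399 ± 80.8 for Wistar rats and of 1002 ± 598 for SHR, SD, n = 4 each; edgeR adjusted p = 0.0762), and SHR replicate 3 alone had 1891. Its log2 fold change of 1.33 was 0.83 without that rat (edgeR adjusted p = 0.0414) and 1.61 without replicate 1 of both strains (edgeR adjusted p = 0.0316), and DESeq2 called it with and without the length offset (adjusted p = 0.000778 and 0.000859). Rgs6 had a log2 fold change of -1.35 (edgeR adjusted p = 0.153), which passed in DESeq2 with the length offset (adjusted p = 0.0493) and without replicate 1 of both strains (-1.99, edgeR adjusted p = 0.0150). Rgs7 and Rgs9, the most abundant of the group, had log2 fold changes of -0.19 and -0.18 (adjusted p = 0.347 and 0.459 from edgeR), and Gnb5 had one of -0.22 (edgeR adjusted p = 0.275).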
